A study of Mus musculus with 6 samples.

Results

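Expression of 10 genes of branched-chain amino acid (BCAA) oxidation was described in iWAT, the inguinal white adipose tissue that lies under the mouse skin. The genes, Bcat2, Bckdha, Bckdhb, Dbt, Bckdk, Ppm1k, Ivd, Mccc1, Mccc2 and Hibadh, were taken by symbol as known members of the pathway. All 10 had a row in the deposited table of 23997 gene symbols, and all 10 were among the 12818 genes that were tested.

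There are 2 groups of 3 libraries. In Atf4AKO mice floxed Atf4 alleles were combined with AdipoqCre, a Cre recombinase driven by the adiponectin promoter, which is active in adipocytes. Atf4WT mice carried the floxed alleles without Cre, so Cre itself and loss of Atf4 cannot be told apart. Both groups were housed at 22 °C and then kept at 5 °C for 12 h, so the comparison is between genotypes in the cold and holds no cold response. The labels give no age, sex or litter, and they do not say whether a library is 1 animal or a pool, so p-values measure only the spread between these libraries. Stranded poly(A) libraries were sequenced, and values are FPKM, that is, fragments scaled by transcript length in kilobases and by each library's mapped fragments in units of 1000000. The study asked what ATF4, a transcription factor of the integrated stress response that drives amino acid synthesis and transport genes, does in adipocytes during cold.

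Leucine, isoleucine and valine are broken down in mitochondria. BCAT2 removes their amino group, and the resulting keto acids are oxidised by the branched-chain keto acid dehydrogenase complex, which a kinase switches off and a phosphatase switches on. Later enzymes, each serving 1 or more of the amino acids, turn the products into acyl-CoA compounds that feed the tricarboxylic acid (TCA) cycle and lipid synthesis. Adipocytes are known for a high capacity for this pathway, and brown fat burns these amino acids in the cold.

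The targeted gene went with the labels. Atf4 was at 152, 140.2 and 114 FPKM in Atf4AKO libraries, against 258, 323 and 317 FPKM in Atf4WT libraries, with no overlap between the groups. FPKM summed to between 524158 and 717778 in a library. From values under 0.15 FPKM, which move in steps of whole reads, the deepest library, Atf4WT 1, was 1.28 times as deep as the shallowest, Atf4AKO 3. Absolute depth is unknown. All 18 adipocyte markers were above 0 in every library. Skeletal muscle markers were high in Atf4AKO 1, Atf4AKO 2 and Atf4WT 2, macrophage markers in Atf4AKO 1, and mammary and skin epithelial markers in Atf4WT 1. In a whole pad, fewer cells of a type and less RNA per cell cannot be told apart.

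None of the 10 genes differed between the genotypes past the threshold. By limma on log2(FPKM + 1), 0 of 10 had an adjusted p below 0.05, where 0.0156% of all tested genes were called (2 of 12818, both higher in Atf4AKO). The lowest of the adjusted p values of the 10 was 0.513, for Mccc1. At an unadjusted p below 0.05 the count was also 0 of 10, against 9.95% of all tested genes. In all 10 genes the libraries of the groups overlapped, whereas 16.5% of all tested genes had groups that did not overlap (8.21% with all Atf4AKO libraries above and 8.34% with all below). The median log2 change of the 10 genes was -0.06, with 3 positive and 7 negative, and that of all tested genes was 0.0046, with 49.4% negative. With 3 against 3 libraries an exact two-sided permutation test cannot give a p below 0.1. Because limma did not call Atf4 itself, a count of 0 of 10 does not show that these genes were unchanged.

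**Figure D1:**
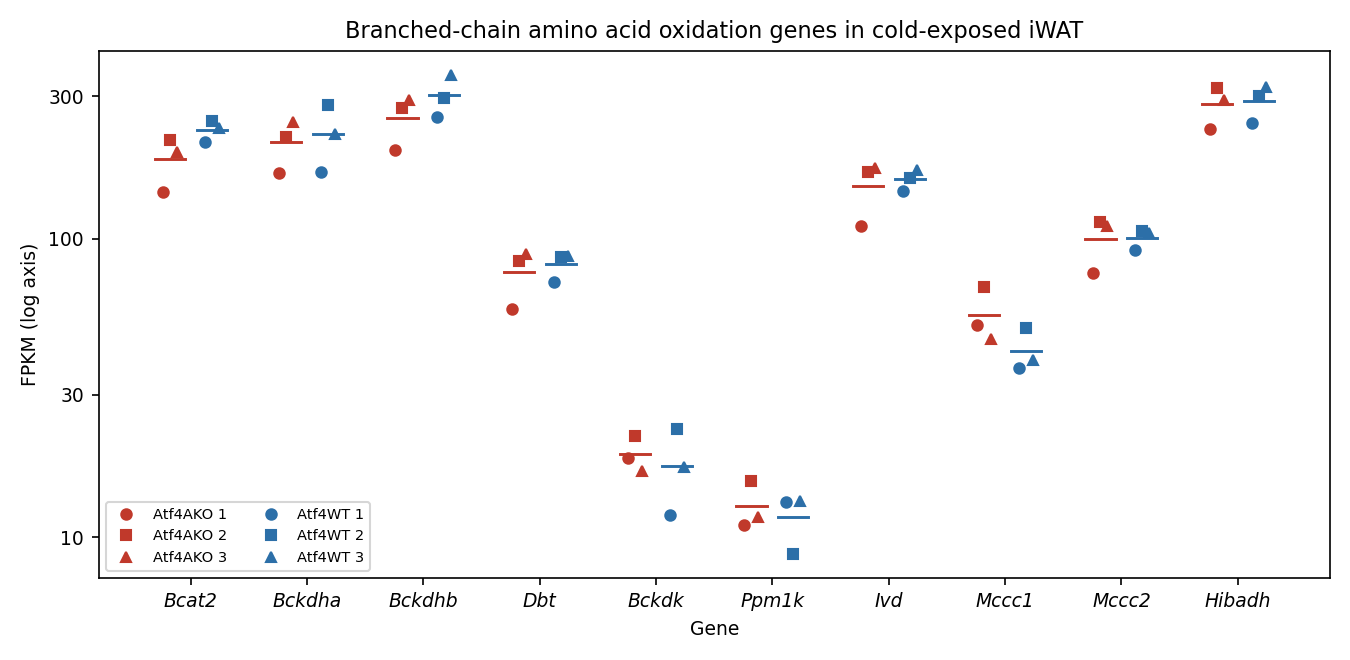
FPKM of the 10 genes on a log axis, with Atf4AKO libraries in red and Atf4WT libraries in blue to their right. Symbols mark replicates 1, 2 and 3, and horizontal lines are group means (n = 3 each). In every gene the points of the groups overlap, and the genes span from 8.79 FPKM (Ppm1k in Atf4WT 2) to 355 FPKM (Bckdhb in Atf4WT 3).

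Most of the 10 genes were abundant in these pads. In mean FPKM over the 6 libraries, 7 of the 10 genes lay above the 90th percentile of tested genes. Hibadh (286 FPKM) and Bckdhb (278 FPKM) were highest, followed by Bckdha (217 FPKM), Bcat2 (208 FPKM), Ivd (154 FPKM), Mccc2 (100.4 FPKM), Dbt (79.6 FPKM), Mccc1 (48.8 FPKM), Bckdk (18.2 FPKM) and Ppm1k (12.2 FPKM). Mccc1 and Bckdk were the only neighbours in this order whose ranges over the libraries did not overlap. Within single libraries the order was firmer. Neighbours kept it in all 6 libraries except for Hibadh above Bckdhb (4 of 6), Bckdha above Bcat2 (4 of 6) and Bckdk above Ppm1k (5 of 6). Among the 10, the genes of catalytic steps thus stood well above the kinase and the phosphatase, which lay at the 71.1 and 62.4 percentiles of tested genes. This does not hold for every enzyme of the pathway, as Mmaa and Abat, outside the 10, lay at the 40.6 and 11.2 percentiles. Hsd17b10, also outside the 10, lay at the 97.5 percentile.

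Bcat2, on chromosome 7 (45570153 to 45589711, plus strand, GRCm38), encodes the mitochondrial transaminase that opens the pathway. It was at 144, 214 and 195 FPKM in Atf4AKO libraries, against 212, 248 and 235 FPKM in Atf4WT libraries. The groups met at a single point, with Atf4AKO 2 just above Atf4WT 1 and the other Atf4AKO libraries below every Atf4WT library. The means were 184 ± 36.6 FPKM in Atf4AKO and 232 ± 18.5 FPKM in Atf4WT (SD, n = 3 each), and the log2 change of -0.35 (SE 0.18, 95% interval -0.77 to 0.08) did not pass (limma adjusted p = 0.517, exact permutation p = 0.2). The interval spans a difference from a lower level of 1.70-fold to a higher one of 1.06-fold. Over 18 other settings the log2 change ran from -0.18 (without Atf4AKO 1) to -0.55 (quantile normalization). It was -0.51 with the adipocyte marker level as a covariate and -0.46 without Atf4AKO 2. After rescaling to equal sums it was -0.50, or -0.37 relative to the median of all tested genes, which that rescaling moved to -0.12. The unadjusted p, 0.0938 with all libraries, was below 0.05 in 5 of the 18, and the limma adjusted p ran from 0.315 to 0.9998. The cytosolic transaminase gene Bcat1, singled out after its values were seen, averaged 0.826 FPKM over the 6 libraries, against 208 FPKM for Bcat2, so per length Bcat2 made up nearly all of the transaminase transcript.

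The dehydrogenase complex is built from an E1 decarboxylase of alpha and beta subunits, an E2 core that carries the acyl group, and a shared E3. Bckdha, on chromosome 7 (25629946 to 25658981, minus strand), encodes E1 alpha, the subunit that the kinase phosphorylates. It was at 166, 219 and 246 FPKM in Atf4AKO libraries, against 168, 281 and 224 FPKM in Atf4WT libraries. Each group thus had 1 low library, Atf4AKO 1 and Atf4WT 1, at nearly the same level. The log2 change was -0.08 (SE 0.24, 95% interval -0.65 to 0.48, limma adjusted p = 0.891).

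Bckdhb, on chromosome 9 (83925145 to 84124240, plus strand), encodes E1 beta. Its values were 198, 275 and 291 FPKM in Atf4AKO libraries, against 256, 296 and 355 FPKM in Atf4WT libraries. Atf4AKO 1 was lowest and Atf4WT 3 highest, and the other 4 libraries lay between 256 and 296 FPKM. The log2 change was -0.25 (SE 0.20, 95% interval -0.73 to 0.23, limma adjusted p = 0.607), and it was -0.081 without Atf4AKO 1 and -0.44 with quantile normalization. Dbt, the E2 core gene on chromosome 3 (116513070 to 116549981, plus strand), was at 58.3, 84.4 and 88.7 FPKM in Atf4AKO libraries, against 71.9, 86.8 and 87.8 FPKM in Atf4WT libraries. Replicate 1 of each group was again below the other libraries, which lay close together. Its log2 change was -0.11 (SE 0.19, 95% interval -0.56 to 0.35, limma adjusted p = 0.81). The E3 gene Dld, shared with pyruvate dehydrogenase and singled out after its values were seen, was at 213, 273 and 238 FPKM in Atf4AKO libraries, against 152, 301 and 244 FPKM in Atf4WT libraries, and the groups overlapped.

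The proportions of the subunit transcripts varied over the 6 libraries by 1.50-fold (Bckdhb over Bckdha) and 1.39-fold (Dbt over Bckdha). Per length, Bckdhb over Bckdha was 1.19, 1.26 and 1.18 in Atf4AKO libraries, against 1.52, 1.05 and 1.58 in Atf4WT libraries. Dbt over Bckdha was 0.351, 0.386 and 0.361 in Atf4AKO libraries, against 0.428, 0.308 and 0.392 in Atf4WT libraries. In both ratios the 3 Atf4AKO libraries lay close together and inside the range of the Atf4WT libraries, whose lowest value was Atf4WT 2. These ratios were chosen after the values were seen and were not tested.

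Bckdk, on chromosome 7 (127904082 to 127910221, plus strand), encodes the kinase that switches the complex off. It was at 18.4, 21.8 and 16.7 FPKM in Atf4AKO libraries, against 11.9, 23.0 and 17.2 FPKM in Atf4WT libraries. Atf4WT 1 and Atf4WT 2 were the lowest and the highest library, so all Atf4AKO values lay within the Atf4WT range. The log2 change was 0.16 (SE 0.24, 95% interval -0.41 to 0.73, limma adjusted p = 0.777). Ppm1k, on chromosome 6 (57506502 to 57535468, minus strand), encodes the mitochondrial phosphatase that switches it on. Its values were 11.0, 15.4 and 11.6 FPKM in Atf4AKO libraries, against 13.1, 8.79 and 13.2 FPKM in Atf4WT libraries. Atf4AKO 2 was highest and Atf4WT 2 lowest. The log2 change was 0.11 (SE 0.20, 95% interval -0.37 to 0.59, limma adjusted p = 0.813).

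Atf4WT 2 held both the highest kinase and the lowest phosphatase value of the 6 libraries. Bckdk over Ppm1k was 1.68, 1.41 and 1.44 in Atf4AKO libraries, against 0.904, 2.62 and 1.30 in Atf4WT libraries. The ratio was lowest in Atf4WT 1 and highest in Atf4WT 2, a range of 2.90-fold, with every Atf4AKO library between. Ucp1, which uncouples respiration in thermogenic fat, was at 456, 497 and 415 FPKM in Atf4AKO libraries, against 15.5, 1370 and 211 FPKM in Atf4WT libraries, so the same Atf4WT libraries were its lowest and highest. The ratio was singled out after its values were seen, and with 6 libraries its relation to Ucp1 was not tested.

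**Figure D2:**
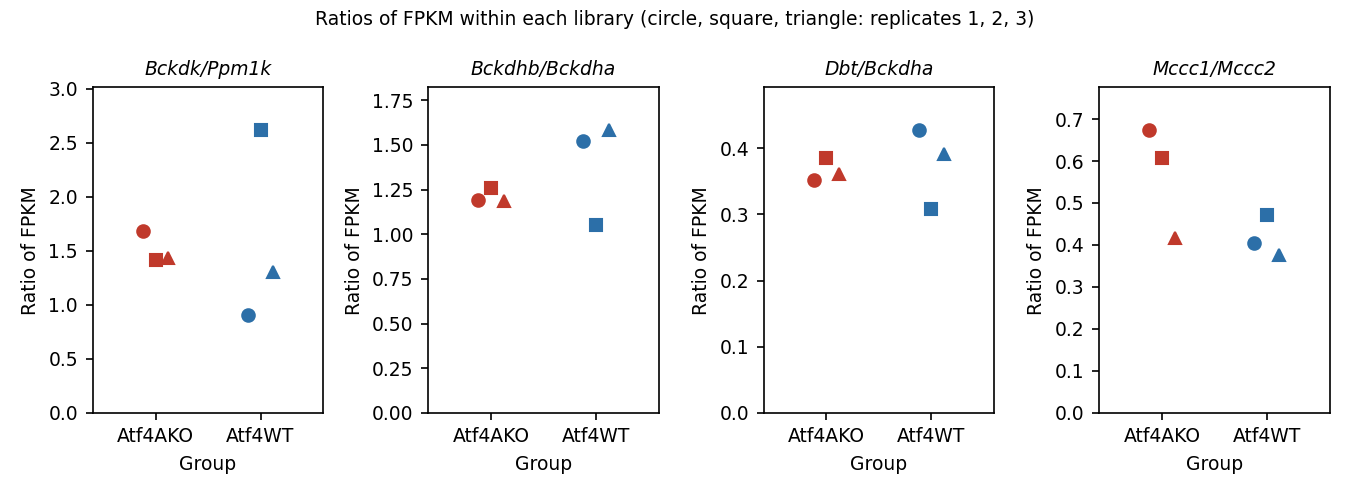
Ratios of FPKM within each library for 4 pairs of genes, with Atf4AKO libraries in red and Atf4WT libraries in blue to their right, on axes that start at 0. The Bckdk/Ppm1k ratio runs from 0.904 in Atf4WT 1 to 2.62 in Atf4WT 2, and in each panel the groups overlap.

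The sequence upstream of this opposed pair is shown because the deleted factor acts through DNA. ATF4 binds composite sites with the core TGATGNAA. The RefSeq promoter table (GRCm38.p6) had 11 start sites for 9 of the 10 genes, and Dbt was not matched. Over the 250 bases before each start, TGATGNAA or its reverse complement was found in 0 of the 11 windows, while 3.45% of all 32851 windows of the same length held it. The GC box GGGCGG, searched on both strands, was present in 4 of the 11 windows (1 each for Mccc1, Hibadh, Ppm1k and Bckdhb) and in 32.7% of all windows. Asns, asparagine synthetase and a textbook ATF4 target, is given beside them for its site, which lies before the RefSeq start but within an Asns exon of the GENCODE annotation. Capitals mark GGGCGG in Bckdk and Ppm1k, and TGATGNAA in Asns.
Bckdk, chr7:127903823-127904072, plus strand: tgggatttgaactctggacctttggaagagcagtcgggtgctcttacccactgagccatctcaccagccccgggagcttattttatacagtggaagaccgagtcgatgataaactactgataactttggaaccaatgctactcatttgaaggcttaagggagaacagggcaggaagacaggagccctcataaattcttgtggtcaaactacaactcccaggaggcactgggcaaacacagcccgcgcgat
Ppm1k, chr6:57535488-57535737, minus strand: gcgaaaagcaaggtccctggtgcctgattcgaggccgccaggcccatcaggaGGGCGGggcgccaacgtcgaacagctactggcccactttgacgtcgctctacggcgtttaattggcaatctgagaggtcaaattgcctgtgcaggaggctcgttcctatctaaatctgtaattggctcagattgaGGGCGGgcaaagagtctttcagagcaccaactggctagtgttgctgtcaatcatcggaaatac
Asns, chr6:7693213-7693242, minus strand: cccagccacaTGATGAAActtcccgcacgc
The Bckdk window holds no GGGCGG and has 50.0% G and C, whereas the Ppm1k window holds 2 and has 54.4%. No match says only that these letters are not in these windows.

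Ivd, on chromosome 2 (118861954 to 118882909, plus strand), encodes isovaleryl-CoA dehydrogenase, the next step for leucine. It was at 110.4, 167 and 172 FPKM in Atf4AKO libraries, against 145, 159.6 and 170.0 FPKM in Atf4WT libraries. Atf4AKO 1 was the 1 library clearly below the rest. The log2 change was -0.10 (SE 0.19, 95% interval -0.57 to 0.36, limma adjusted p = 0.826).

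Mccc1 and Mccc2 encode the biotin-carrying alpha and the beta subunit of methylcrotonyl-CoA carboxylase, which follows in leucine breakdown. Mccc1, on chromosome 3 (35959312 to 36000678, minus strand), was at 51.6, 68.8 and 46.2 FPKM in Atf4AKO libraries, against 36.9, 50.2 and 39.3 FPKM in Atf4WT libraries. Only Atf4AKO 3 and Atf4WT 2 crossed. The means were 55.5 ± 11.8 FPKM in Atf4AKO and 42.1 ± 7.11 FPKM in Atf4WT (SD, n = 3 each), and the log2 change of 0.38 (SE 0.19, 95% interval -0.08 to 0.84) did not pass (limma adjusted p = 0.513, exact permutation p = 0.2). The skeletal muscle markers stood at 2.14, 3.11 and -2.18 in Atf4AKO libraries and at -1.80, 0.86 and -2.13 in Atf4WT libraries (mean log2 level relative to the 6 libraries). Within each group the library highest in muscle markers was the highest in Mccc1. These libraries, Atf4AKO 2 and Atf4WT 2, were also the highest of their groups in adipocyte markers, at 0.40 and 0.11. The part of either tissue in the Mccc1 values was not tested. With the skeletal muscle marker level as a covariate the log2 change of Mccc1 was 0.18, and with the adipocyte marker level 0.21. After rescaling to equal sums it was 0.23, or 0.36 relative to the median of all tested genes. It was 0.22 without Atf4AKO 2, 0.50 without Atf4AKO 3 and 0.51 without Atf4WT 2. The unadjusted p, 0.0883 with all libraries, was below 0.05 in 3 of the 18 settings, and the limma adjusted p ran from 0.245 to 0.9998.

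Mccc2, on chromosome 13 (99948530 to 100015639, minus strand), was at 76.5, 113 and 110.7 FPKM in Atf4AKO libraries, against 91.4, 106 and 104 FPKM in Atf4WT libraries. Its means were 100.2 ± 20.6 FPKM in Atf4AKO and 100.7 ± 8.09 FPKM in Atf4WT (SD, n = 3 each), and its log2 change was -0.03 (SE 0.18, 95% interval -0.46 to 0.40, limma adjusted p = 0.955). Mccc1 over Mccc2 was 0.674, 0.607 and 0.417 in Atf4AKO libraries, against 0.404, 0.472 and 0.376 in Atf4WT libraries, with Atf4AKO 3 below Atf4WT 2. The same ratio for propionyl-CoA carboxylase, whose alpha subunit Pcca also carries biotin, was 0.427, 0.340 and 0.314 for Pcca over Pccb in Atf4AKO libraries, against 0.370, 0.339 and 0.274 in Atf4WT libraries. These ratios were chosen after the values were seen. In both enzymes Atf4AKO 1 had the highest ratio and Atf4WT 3 the lowest.

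Hibadh, on chromosome 6 (52546228 to 52640389, minus strand), encodes 3-hydroxyisobutyrate dehydrogenase of valine breakdown. Its substrate is a free acid that can leave the cell. Hibadh was at 234, 320.0 and 292 FPKM in Atf4AKO libraries, against 244, 301 and 322 FPKM in Atf4WT libraries. Replicate 1 was lowest in both groups. The log2 change was -0.04 (SE 0.17, 95% interval -0.46 to 0.38, limma adjusted p = 0.931), and the gene had the smallest fold range over the 6 libraries, 1.38, of the 10.

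**Figure D3:**
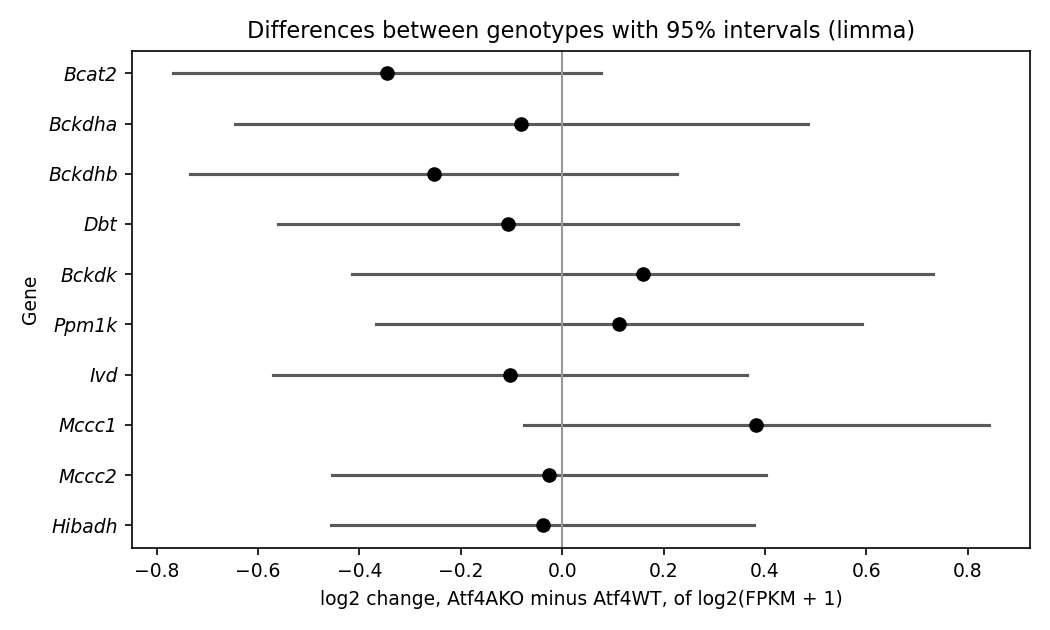
Log2 change of each gene, Atf4AKO minus Atf4WT, on the log2(FPKM + 1) scale (points) with 95% intervals from limma (lines, n = 3 each). All 10 intervals include 0. Bcat2 at -0.35 and Mccc1 at 0.38 lie farthest from it.

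The low values of the 10 genes gathered in a few libraries. Atf4AKO 1 was the lowest library in 7 of the 10 (Bcat2, Bckdha, Bckdhb, Dbt, Ivd, Mccc2 and Hibadh), Atf4WT 1 in 2 (Bckdk and Mccc1) and Atf4WT 2 in 1 (Ppm1k). The share of all tested genes lowest in each library was not computed, so these counts cannot be called particular to the 10 genes. The mean log2 level of the 10 genes relative to the 6 libraries was -0.29, 0.18 and 0.06 in Atf4AKO libraries, against -0.17, 0.12 and 0.10 in Atf4WT libraries. Without Atf4AKO 1 only Bcat2 and Bckdhb kept a negative log2 change, so the count of negative changes was 2 of 10 in place of 7. In Atf4AKO 1 macrophage markers stood at 2.02 and fibroblast markers at 1.00, against at most 0.27 and 0.32 in the other libraries, while adipocyte markers stood at -0.11. All 15 macrophage markers were above 0 in every library, and their summed FPKM ran from 606 to 3412 in Atf4AKO libraries and from 302 to 716 in Atf4WT libraries. The part of these cells in the low values of Atf4AKO 1 was not tested.

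Summed over the 10 genes, FPKM came to 1067, 1499 and 1470.4 in Atf4AKO libraries, against 1250, 1561 and 1568 in Atf4WT libraries. As a share of all FPKM in the library, the sums were 0.174%, 0.209% and 0.238% in Atf4AKO libraries, against 0.238%, 0.2496% and 0.258% in Atf4WT libraries. On this scale the highest Atf4AKO library (0.2376%) lay just under the lowest Atf4WT library (0.2384%), whereas the sums themselves overlapped. Rescaling to equal sums moved the median log2 change of all tested genes to -0.12, so lower values in Atf4AKO on this scale are not particular to the 10 genes. Before rescaling, 16.5% of all tested genes had groups that did not overlap. That figure is for single genes, and none was computed after rescaling, so how unusual the gap between the shares is was not measured. The shares also depend on the few most abundant transcripts of each library.

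**Figure D4:**
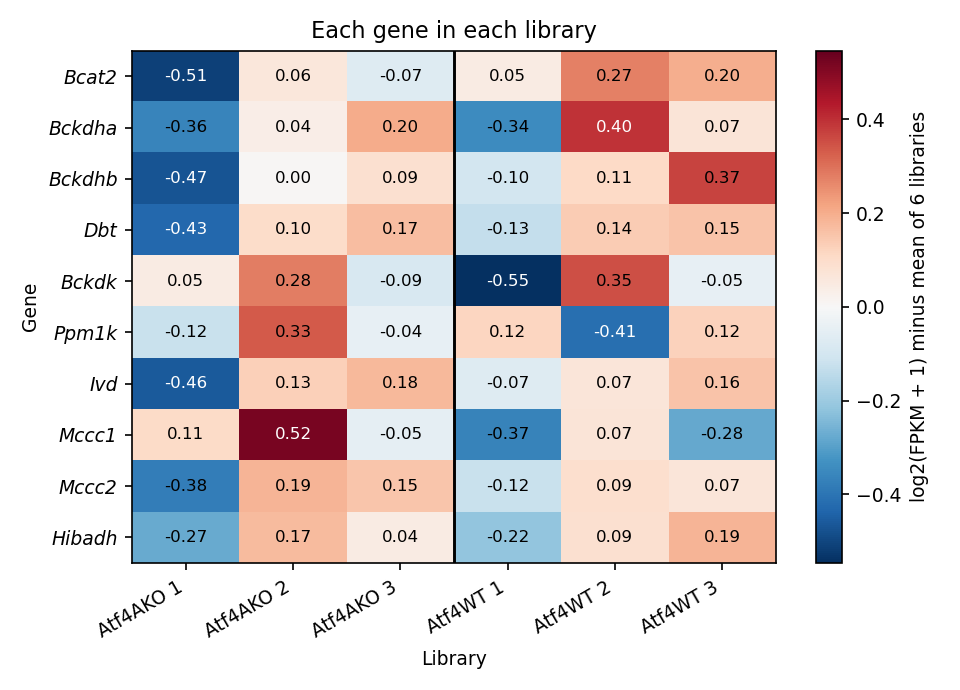
Log2(FPKM + 1) of each gene in each library minus its mean over the 6 libraries, with Atf4AKO libraries on the left and Atf4WT libraries on the right of the line. Atf4AKO 1 is low in 7 genes, down to -0.51 for Bcat2, while Bckdk is lowest in Atf4WT 1 (-0.55) and Ppm1k in Atf4WT 2 (-0.41).

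The mean level of the 10 genes varied less between libraries than that of thermogenic genes or genes of the TCA cycle. Across the 6 libraries the level of 14 thermogenic genes ran from -1.88 to 1.23. That of 20 genes of the TCA cycle and pyruvate dehydrogenase ran from -0.72 to 0.43, and that of the 10 BCAA genes from -0.29 to 0.18. A small spread of the mean level was not particular to the 10 genes. In such a mean, genes that move in opposite directions cancel, so it does not give the spread of single genes. BCAA transporters ran from -0.09 to 0.13, endothelial markers from -0.19 to 0.19, and genes that sense BCAA or regulate the pathway from -0.23 to 0.22. Other enzymes of the pathway ran from -0.33 to 0.20. Over the 6 libraries Ucp1 spanned 88.7-fold, and each of the 10 genes between 1.38-fold and 1.94-fold. Among the Atf4WT libraries, 9 of the 10 genes, all but Ppm1k, were lowest in Atf4WT 1, where Ucp1 was lowest. Of these, 5 were also highest in Atf4WT 2, where Ucp1 was highest (Bcat2, Bckdha, Bckdk, Mccc1 and Mccc2). Atf4WT 1 was also the library lowest in adipocyte markers, at -0.50 against -0.11 to 0.40 in the other 5, and the highest in mammary and skin epithelial markers, at 2.56. The FPKM of Atf4WT 1 also had the lowest sum of the 6 libraries, 524158. As a share of that sum the 10 genes were at 0.238%, against 0.2496% and 0.258% in the other Atf4WT libraries. The part of these cells or of the FPKM sum in the low values of Atf4WT 1 was not tested. The share of all tested genes that were lowest in Atf4WT 1 was not computed. The levels of the lists are described here and were not tested against each other.

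**Figure D5:**
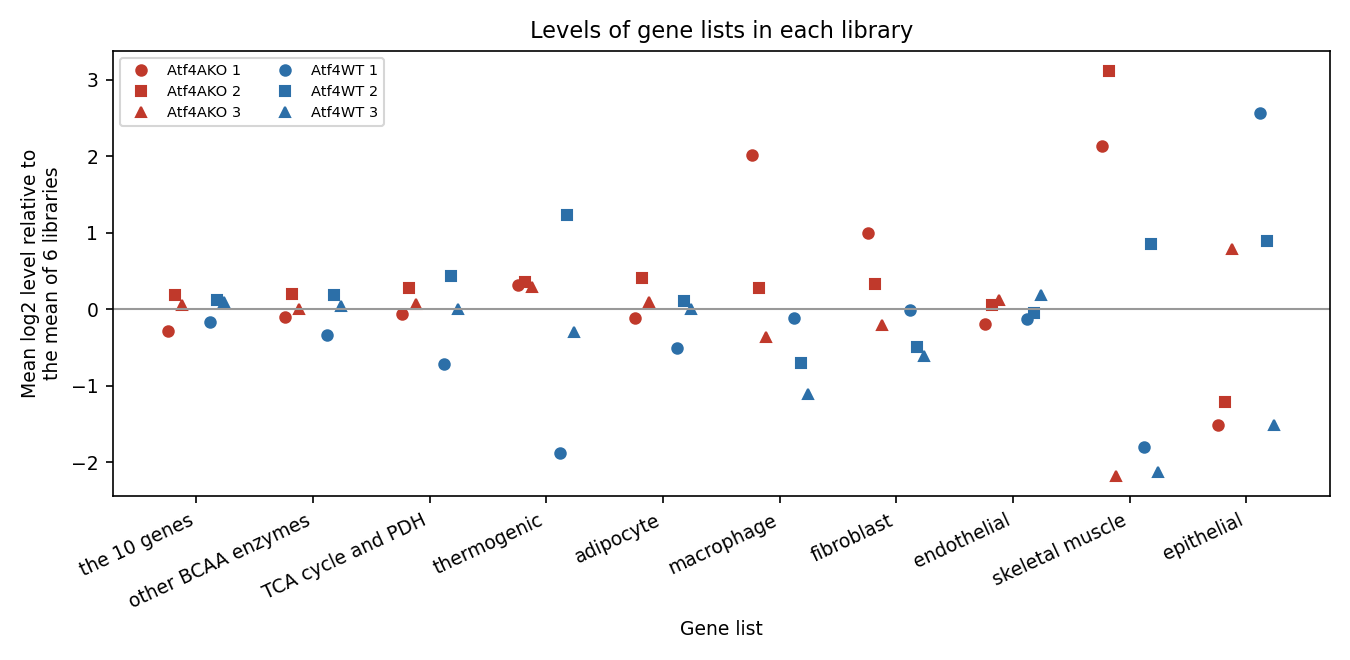
Mean log2 level of gene lists in each library relative to the mean of the 6 libraries, with Atf4AKO libraries in red and Atf4WT libraries in blue to their right. The 10 BCAA genes stay between -0.29 and 0.18, whereas thermogenic genes run from -1.88 to 1.23, macrophage markers reach 2.02 in Atf4AKO 1, and skeletal muscle markers reach 3.11 in Atf4AKO 2.

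Other enzymes of the pathway gave the same count. Of 22 further genes, from Dld to the enzymes that handle propionyl-CoA and ketone bodies, limma called 0. An unadjusted p below 0.05 was found in 0 of them, and groups that did not overlap also in 0. Among all tested genes these shares were 0.0156%, 9.95% and 16.5%. The 22 genes had 14 positive and 8 negative changes and a median log2 change of 0.09. The genes of smallest p on the lower side were Mmaa, which handles the cobalamin of methylmalonyl-CoA mutase (4.44 ± 0.221 FPKM in Atf4AKO, 5.77 ± 1.23 FPKM in Atf4WT), and Hsd17b10 of isoleucine breakdown (271 ± 40.9 FPKM in Atf4AKO, 319.9 ± 35.8 FPKM in Atf4WT; mean ± SD, n = 3 each). On the higher side were Oxct1, which activates acetoacetate (70.0 ± 22.0 FPKM in Atf4AKO, 51.7 ± 6.89 FPKM in Atf4WT), and Auh, the hydratase after methylcrotonyl-CoA carboxylase (67.4 ± 11.9 FPKM in Atf4AKO, 57.6 ± 11.0 FPKM in Atf4WT). Pcca averaged 46.2 ± 5.86 FPKM in Atf4AKO and 39.9 ± 10.5 FPKM in Atf4WT, and Abat, GABA transaminase, 1.26 ± 0.236 FPKM in Atf4AKO and 1.02 ± 0.102 FPKM in Atf4WT (mean ± SD, n = 3 each). Oxct1 was highest in Atf4AKO 2, the library highest in skeletal muscle markers and also in adipocyte markers. Its log2 change of 0.39 was 0.12 with the skeletal muscle covariate and 0.23 with the adipocyte covariate.

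Limma called 0 transport genes, and 0 had an unadjusted p below 0.05, with 5 positive and 2 negative changes among 7 tested of 8 and a median log2 change of 0.15. Slc25a44, the carrier that takes BCAA into mitochondria, was at 24.3, 29.8 and 24.5 FPKM in Atf4AKO libraries, against 22.6, 20.5 and 24.4 FPKM in Atf4WT libraries. The groups touched, with Atf4AKO 1 below Atf4WT 3 (log2 change 0.21, SE 0.13, limma adjusted p = 0.548). Slc7a8, a plasma membrane exchanger of large neutral amino acids, was at 380.1 ± 87.0 FPKM in Atf4AKO and 294 ± 52.6 FPKM in Atf4WT, and its heavy chain partner Slc3a2 at 377 ± 62.8 FPKM in Atf4AKO and 418 ± 19.9 FPKM in Atf4WT (mean ± SD, n = 3 each). Slc6a19, a sodium-coupled neutral amino acid transporter, was low at 1.32 ± 0.254 FPKM in Atf4AKO and 0.959 ± 0.442 FPKM in Atf4WT. Of 9 genes that sense BCAA or regulate the pathway limma called 0. In 2 of the 9, both with an unadjusted p below 0.05, the groups did not overlap. Among all tested genes 16.5% had groups that did not overlap, and 9.95% had an unadjusted p below 0.05. Sesn2, in human cells a leucine sensor of mTORC1, had all Atf4AKO libraries above (log2 change 0.82, SE 0.25, limma adjusted p = 0.5). Srebf1, a lipogenic factor, had all below (log2 change -0.48, SE 0.20, limma adjusted p = 0.5). The log2 change of Srebf1 was -0.31 without Atf4AKO 2, -0.30 with the adipocyte covariate and -0.24 without the 3 muscle-rich libraries, and its unadjusted p was below 0.05 in 9 of the 18 settings. Ppargc1a, a coactivator of mitochondrial genes, had overlapping groups (log2 change 1.11, SE 0.47, limma adjusted p = 0.5). It was highest in Atf4AKO 2, at 22.6 FPKM. Its log2 change was 0.49 with the skeletal muscle covariate (SE 0.18), 0.45 without the muscle-rich libraries and 0.73 without Atf4AKO 2. Without Atf4AKO 3 it was 1.58 and without Atf4WT 2 it was 1.39. The unadjusted p of Ppargc1a was below 0.05 in 6 of the 18 settings.

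Exons of 4 of the 10 genes overlap other annotated genes (Bcat2, Bckdha, Hibadh and Mccc1). The sources used here do not say if counting was by strand. The overlapping genes with a row were low: the antisense 0610005C13Rik at Bcat2 reached at most 0.349 FPKM, B3gnt8 at Bckdha 1.68 FPKM, and the antisense Mccc1os at Mccc1 0.0611 FPKM.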

How the data were processed

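Messenger RNA of iWAT from 3 Atf4AKO and 3 Atf4WT libraries was analysed. Groups and replicate numbers come from the sample titles, and columns were matched through the sample descriptions. The authors deposited FPKM, 1 value per gene symbol and library. The genome build was mm10, per the submitters' processing notes, and which aligner, quantifier and gene models were used is not given in the sources used here. Such values depend on the transcript lengths assumed and on each library's total, and are not counts, so no count model was used.

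Genes whose mean was 0.5 FPKM or more entered the test, and their log2(FPKM + 1) values were fitted with limma 3.58.1 in R 4.3.3 (lmFit, eBayes with trend, no covariate). Adjusted p is by Benjamini-Hochberg across the 12818 genes tested, and a gene was called below 0.05. A log2 change is Atf4AKO minus Atf4WT and understates the change of low genes. The procedure was tested on simulated data with independent noise and with shifts larger than the log2 change of any of the 10 genes. That test therefore does not bear on changes of their size. The 10 genes and all lists were chosen with earlier results of these data known. From the lists of other pathway enzymes, transporters and regulators, up to 6, 4 and 3 genes of smallest p are named. Mmut, Castor1 and Adgre1 were found under their RefSeq synonyms Mut, Gatsl3 and Emr1. Coordinates are from GENCODE M21 (GRCm38, the build of mm10), and promoters from RefSeq. FPKM gives no read totals, so no counting interval is given. Alternatives varied the pseudocount, filter, scaling, trend, replicate block, marker covariates and the libraries used.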

Additional observations from a re-analysis of the deposited data

How the results depend on the processing

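None of the 10 genes was called under any of the 18 alternatives, with limma adjusted p from 0.245 to 0.9998. Of 180 values, 158 kept their direction and 22 reversed, all of genes whose log2 change was between -0.11 and 0.16. Bcat2, Bckdhb and Mccc1 kept their direction throughout but not their size, with ranges of -0.55 to -0.18, -0.44 to -0.049 and 0.18 to 0.51.

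With the skeletal muscle covariate Bckdk was at -0.039 and Mccc2 at 0.0046, with the adipocyte covariate Bckdk at -0.10, and after rescaling to equal sums Ppm1k at -0.030. That rescaling moved the median of all tested genes to -0.12, so Ppm1k then lay above it. Without the 3 muscle-rich libraries, where the lone Atf4AKO library is taken to have the spread of Atf4WT, Bckdha was at 0.34, Dbt at 0.16, Ppm1k at -0.17, Ivd at 0.13, Mccc2 at 0.18 and Hibadh at 0.058. Among genes outside the 10, the adipocyte covariate gave Auh -0.0045 and Ucp1 -0.10, and Slc3a2 was at 0.10 without the muscle-rich libraries.

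Leaving out 1 library at a time gave ranges of -0.46 to -0.18 for Bcat2, -0.37 to -0.081 for Bckdhb, 0.22 to 0.51 for Mccc1, -0.27 to 0.10 for Bckdha, -0.22 to 0.080 for Dbt, -0.074 to 0.38 for Bckdk, -0.066 to 0.20 for Ppm1k, -0.22 to 0.10 for Ivd, -0.13 to 0.16 for Mccc2, -0.16 to 0.090 for Hibadh and -0.24 to 2.95 for Ucp1. The count of negative changes among the 10, an alternative chosen after seeing the data, was 7 with all libraries, from 2 (without Atf4AKO 1) to 8 with 1 library left out, and 3 without the muscle-rich libraries. The cause was not tested.

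Over all genes, 2 were called higher and 0 lower. The counts were 0 higher with the replicate block or without the muscle-rich libraries, 1 with the muscle covariate, and from 0 to 3 higher and 0 to 2 lower with 1 library left out. Deviations from the group means of same-numbered libraries went together with r of 0.0818, 0.404 and 0.0691 across genes. Those of Atf4AKO 3 went more with those of Atf4WT 1 (r of 0.187) than of Atf4WT 3. The labels give no pairing, and these values cannot say whether same-numbered libraries share a batch. With the replicate block as a factor the log2 changes of the 10 genes stayed the same (Bcat2 -0.35, Mccc1 0.38) and none was called. The SE fell from 0.18 to 0.12 for Bcat2 and from 0.19 to 0.10 for Mccc1. Only for Ppm1k did it rise, from 0.20 to 0.23. Absolute depth is unknown. With 3 libraries a group, the 95% intervals of the 10 genes reach differences of 1.37-fold to 1.79-fold at their farther end.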
